A study of Danio rerio with 4 samples.

Results

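The RNA bisulfite comparison of nop2 mutant and sibling zebrafish brain yielded 52 distinct differential methylation regions, and all 52 of the 52 in the authors' deposited table were counted here. The table had 53 rows, because 1 region was listed under both pkd1a and CABZ01043826.1, and it named 51 genes. A region is a short stretch of the genome in which a run of neighbouring cytosines had different methylation levels in a condition 1 and a condition 2. Every distinct combination of chromosome, start and end was taken as a member, and no measured value was used to choose among them.

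The series compared zebrafish with a mutation in nop2 with their siblings, in brain tissue labelled as whole brain cells. The labels gave neither the nop2 allele nor the genotypes of the siblings, and nothing said how many fish were pooled. The age was given as 48 days after fertilization in the titles and as 48 hours in the design text, and this could not be settled here. Each genotype had 1 RNA bisulfite library and 1 separate Ribo-seq library. No header or label tied condition 1 or condition 2 to a genotype, so differences are given as condition 1 minus condition 2 and never as mutant against sibling. Since each genotype had 1 library, no difference was checked by replicates. How many stretches the authors examined is not known here, so no background share could be set beside the number of regions.

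In RNA bisulfite sequencing, unmodified cytosines are converted and read as thymine, while 5-methylcytosine (m5C) resists conversion and is read as cytosine. In principle the level at a position is the fraction of reads that kept the cytosine, so structured or incompletely converted RNA can also raise it. The levels given below are the authors' deposited values. How they were computed from reads is not known here, so they are not taken as separate read fractions of each cytosine. Nop2 is a nucleolar m5C methyltransferase of the large ribosomal RNA and an assembly factor of the large ribosomal subunit, and other NSUN family enzymes and Trdmt1 modify transfer RNA, mitochondrial RNA and some messenger RNA.

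Most regions had their higher deposited level in condition 1 and a deposited level near 0 in condition 2. The authors' deposited table listed 41 regions that were higher in condition 1 and 11 that were higher in condition 2. The share higher in condition 1 was 78.8%, with an exact 95% binomial interval of 65.3 to 88.9% that treats regions as independent. The regions came from 1 pair of libraries, and some shared a gene or a level. The interval therefore does not describe variation between fish or libraries. From the authors' deposited table, the median level over the 41 regions was 0.396 in condition 1 against 0.00046 in condition 2. Over the 11 others it was 0.000575 in condition 1 against 0.395 in condition 2, so both kinds of region reached a similar height. The level in the higher condition ranged from 0.167 to 0.731 over all 52 regions. It was at least 0.5 in 16 regions, between 0.2 and 0.5 in 35, and under 0.2 in 1.

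The lower level was under 0.01 in 50 of the 52 regions, and all 50 were also under 0.001. The remaining regions, in si:dkey-35m8.1 and si:ch211-153f2.3, were both higher in condition 2. In the authors' deposited table si:dkey-35m8.1 had a level of 0.0746 in condition 1 against 0.391 in condition 2. The authors' deposited table gave si:ch211-153f2.3 a level of 0.184 in condition 1 against 0.624 in condition 2. No other region had a lower level above 0.001.

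**Figure D1:**
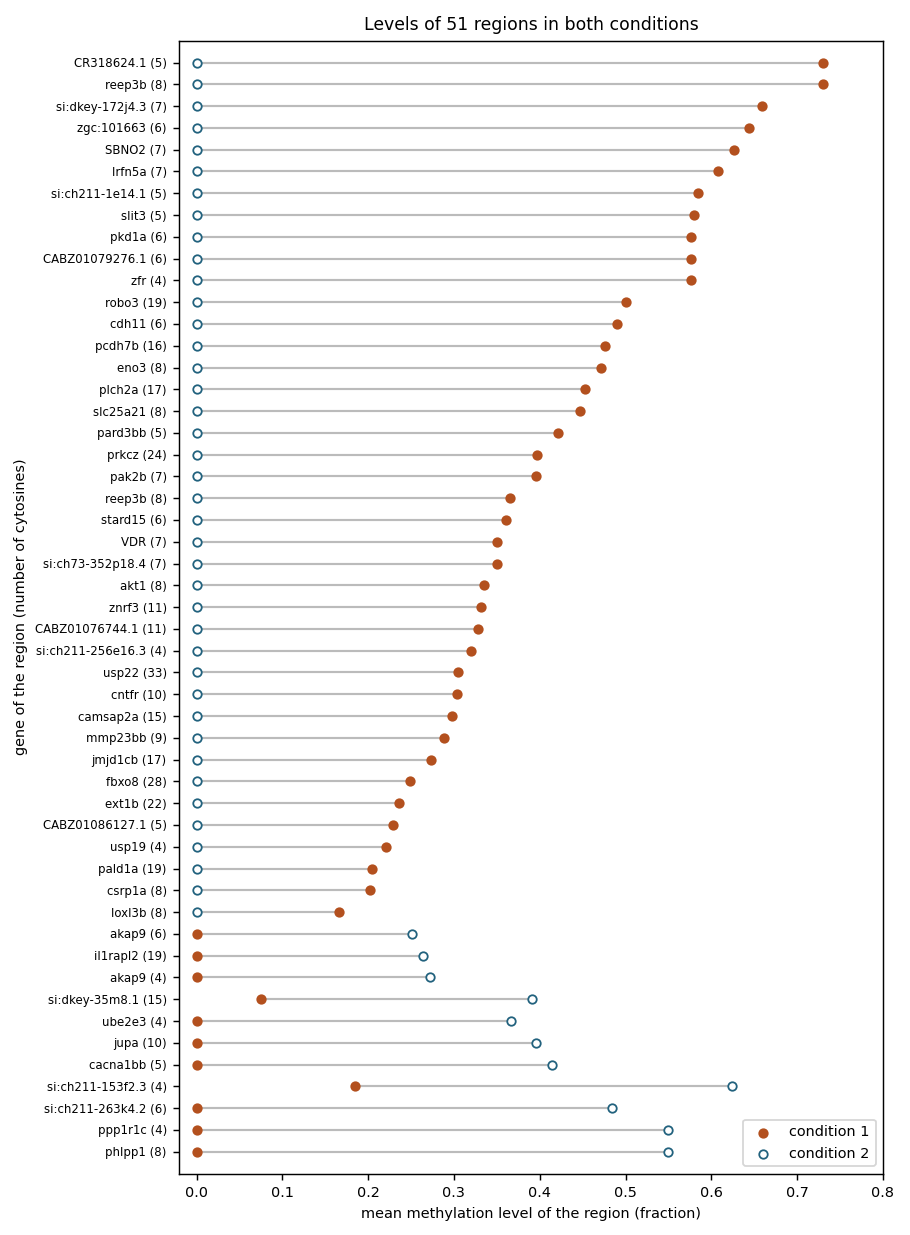
Mean methylation level of each region (fraction, horizontal axis) in condition 1 (filled points) and condition 2 (open points), 1 row per region for 51 of the 52, with its gene and number of cytosines, ordered by the difference. The 40 upper rows have condition 2 near 0 and the 11 lower rows have condition 1 as the lower level, above 0.01 in 2 of them.

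The regions varied in length and in number of cytosines. Their median length was 116.5 bases (55 to 518), and they held a median of 7.5 cytosines (4 to 33) at a density of 6.66 per 100 bases. Regions higher in condition 1 had a median length of 118 bases and 8 cytosines, against 103 bases and 6 cytosines for those higher in condition 2. In total the regions held 516 cytosines, 431 of them in regions higher in condition 1 and 85 in regions higher in condition 2. The 5 regions with most cytosines held 126 of the 516. They lay in usp22, fbxo8, prkcz, ext1b and either pald1a, robo3 or il1rapl2, which were tied at 19. Of the 12 regions with most cytosines, 11 were higher in condition 1, and il1rapl2 was the exception.

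The regions were spread over 19 chromosomes and 1 unplaced scaffold of GRCz11, the zebrafish build named in the submitters' processing notes. Chromosomes 12 and 23 had 5 regions each, and chromosomes 4, 6, 15, 16, 20 and 25 had none. Only reep3b and akap9 had more than 1 region each. The genes were sorted by hand into functional classes, and the roles given below are background, known mostly from work in mammals. Over all regions 41 of 52 (78.8%) were higher in condition 1. A majority in that direction within a small class is therefore not a trait of the class.

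Genes of ubiquitin conjugation and removal had 5 regions, of which 4 were higher in condition 1. The gene usp22 encodes a deubiquitinase of the SAGA chromatin complex, and its region had 33 cytosines over 481 bases, the most of any region. It lay on chromosome 12 from 1524838 to 1525318, 733 bases from the nearer end of the gene span. Its level in the authors' deposited table was 0.305 in condition 1 against 0.000306 in condition 2. The F-box gene fbxo8 had 28 cytosines over 275 bases (chromosome 1, 38356085 to 38356359), with a level of 0.249 in condition 1 against 0.00021 in condition 2, per the authors' deposited table. The gene znrf3 encodes a ubiquitin ligase that removes Wnt receptors from the cell surface. Over its 11 cytosines the authors' deposited table gave 0.332 in condition 1 against 0.000321 in condition 2. The deubiquitinase gene usp19 had 4 cytosines at 0.22 in condition 1 against 0.000274 in condition 2, by the authors' deposited table. The exception was ube2e3, for a ubiquitin-conjugating enzyme, with 0.000424 in condition 1 against 0.366 in condition 2 over 4 cytosines in the authors' deposited table. Its region ended 247 bases from the high-coordinate end of the span, the closest of all 52.

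Signalling genes formed the largest class with 11 regions in 10 genes, 7 higher in condition 1 and 4 in condition 2. The gene prkcz encodes an atypical protein kinase C of cell polarity and had 24 cytosines over 178 bases (chromosome 8, 17679882 to 17680059). Its level in the authors' deposited table was 0.397 in condition 1 against 0.00053 in condition 2. The phospholipase C gene plch2a had 17 cytosines at 0.453 in condition 1 against 0.000624 in condition 2, per the authors' deposited table. The gene pald1a, for the phosphatase-domain protein paladin, had 19 cytosines at 0.204 in condition 1 against 0.000358 in condition 2, by the authors' deposited table. The most methylated region of the class was in si:dkey-172j4.3, which the deposited annotation links to phosphatidic acid synthesis. It had 0.66 in condition 1 against 0.000487 in condition 2 over 7 cytosines in the authors' deposited table.

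The kinase gene akt1 and the gene of a phosphatase that removes phosphate from Akt, phlpp1, both had a region of 8 cytosines, in opposite directions. The authors' deposited table gave akt1 0.336 in condition 1 against 0.000303 in condition 2. For phlpp1 it was 0.000394 in condition 1 against 0.549 in condition 2, per the authors' deposited table. Its difference of -0.55 was the largest among regions higher in condition 2, nearly equalled by ppp1r1c, also at -0.55. The phosphatase inhibitor gene ppp1r1c had 4 cytosines at 0.000495 in condition 1 against 0.549 in condition 2, by the authors' deposited table. The gene akap9, for an anchor of protein kinase A, had 2 regions of 6 and 4 cytosines separated by 72 bases. The first had 0.00048 in condition 1 against 0.251 in condition 2, and the second 0.000575 in condition 1 against 0.272 in condition 2, per the authors' deposited table. Both thus had a level near 0 in condition 1. The receptor gene cntfr (0.304 in condition 1, against 0.000633 in condition 2) and the kinase gene pak2b (0.396 in condition 1, against 0.000487 in condition 2) completed the class in the authors' deposited table.

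Genes of neuronal adhesion, axon guidance and synapses had 6 regions, 5 of them higher in condition 1. The axon guidance receptor gene robo3 and slit3, the gene of a secreted ligand of Robo receptors, were both in this group. In the authors' deposited table robo3 had 0.5 in condition 1 against 0.000668 in condition 2 over 19 cytosines (chromosome 10, 31405332 to 31405516). The authors' deposited table gave slit3 0.58 in condition 1 against 0.000515 in condition 2 over 5 cytosines. The protocadherin gene pcdh7b had the longest region, 518 bases with 16 cytosines (chromosome 7, 63540833 to 63541350), at 0.477 in condition 1 against 0.000591 in condition 2, by the authors' deposited table. The cadherin gene cdh11 had 0.49 in condition 1 against 0.000688 in condition 2, per the authors' deposited table. The synaptic adhesion gene lrfn5a had 0.608 in condition 1 against 0.000487 in condition 2, by the authors' deposited table, 1 of the 6 largest differences. The exception was il1rapl2, for an interleukin receptor-like membrane protein, with 19 cytosines at 0.000585 in condition 1 against 0.264 in condition 2, per the authors' deposited table (chromosome 14, 10126920 to 10127091).

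Among 4 cytoskeletal and polarity genes, 3 regions were higher in condition 1. The authors' deposited table gave camsap2a, whose protein binds microtubule minus ends, 0.298 in condition 1 against 0.000483 in condition 2 over 15 cytosines. The gene pard3bb, a relative of the polarity gene par3, had 0.421 in condition 1 against 0.000617 in condition 2, by the authors' deposited table. The LIM domain gene csrp1a had 0.202 in condition 1 against 0.000665 in condition 2, per the authors' deposited table. The plakoglobin gene jupa, whose protein links cadherins to the cytoskeleton, had 0.00058 in condition 1 against 0.395 in condition 2 over 10 cytosines in the authors' deposited table.

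All 4 regions in genes of the extracellular matrix and glycan synthesis were higher in condition 1, where 78.8% of all regions were. The heparan sulfate polymerase gene ext1b had 22 cytosines over 272 bases at 0.236 in condition 1 against 0.000218 in condition 2, by the authors' deposited table. The lysyl oxidase gene loxl3b had the lowest higher level of all 52 regions, 0.167 in condition 1 against 0.000482 in condition 2, per the authors' deposited table. The metallopeptidase gene mmp23bb had 0.288 in condition 1 against 0.000688 in condition 2, by the authors' deposited table. The gene zgc:101663, linked to N-linked glycosylation by the deposited annotation, had 0.644 in condition 1 against 0.00017 in condition 2 over 6 cytosines in the authors' deposited table.

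Of 3 regions in channel and transporter genes, 2 were higher in condition 1. They lay in the mitochondrial carrier gene slc25a21 (0.447 in condition 1, against 0.000436 in condition 2) and the polycystin gene pkd1a (0.576 in condition 1, against 0.000443 in condition 2), per the authors' deposited table. The calcium channel gene cacna1bb had 0.000501 in condition 1 against 0.414 in condition 2, by the authors' deposited table. Transcription and chromatin genes had 3 regions, all higher in condition 1, where 78.8% of all regions were. The strawberry notch homolog SBNO2 had the shortest region, 55 bases with 7 cytosines, at 0.626 in condition 1 against 0.000487 in condition 2, per the authors' deposited table. The JmjC family gene jmjd1cb had 17 cytosines at 0.273 in condition 1 against 0.00046 in condition 2, and the vitamin D receptor gene VDR had 7 cytosines at 0.35 in condition 1 against 0.000363 in condition 2, by the authors' deposited table.

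The gene reep3b, whose protein shapes tubules of the endoplasmic reticulum, had 2 regions of 8 cytosines each, 5938 bases apart and both higher in condition 1. The first had the joint highest level of all regions, 0.731 in condition 1 against 0.000436 in condition 2, per the authors' deposited table. The second had 0.366 in condition 1 against 0.000222 in condition 2, by the authors' deposited table. The region of jmjd1cb lay 78795 bases from the first. The lipid transfer gene stard15 had 0.36 in condition 1 against 0.000396 in condition 2, per the authors' deposited table. The muscle-type enolase gene eno3 had 0.472 in condition 1 against 0.000534 in condition 2 over 8 cytosines in the authors' deposited table. The RNA-binding protein gene zfr was the only member of the RNA class, with 4 cytosines at 0.576 in condition 1 against 0.000688 in condition 2, by the authors' deposited table.

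The remaining 10 regions were in genes to which no role was given here, 7 higher in condition 1 and 3 in condition 2. Of these, CR318624.1 shared the highest level with the first reep3b region, 0.731 in condition 1 against 0.000436 in condition 2, per the authors' deposited table. The third region higher in condition 2 in this group was in si:ch211-263k4.2, at 0.000663 in condition 1 against 0.484 in condition 2, by the authors' deposited table. The short region of CABZ01086127.1, 60 bases with 5 cytosines, had 0.228 in condition 1 against 0.000242 in condition 2, per the authors' deposited table. None of the 16 listed enzymes and binding proteins of RNA m5C, nop2 among them, had a region or a listed differential cytosine. Only 51 genes had a region and 41 more had listed cytosines, beside 25522 genes in the Ribo-seq data. With so small a share of all genes, this absence is no result about the 16.

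Within a region the deposited levels rarely differed from cytosine to cytosine. A second deposited table listed 617 distinct differential cytosines, of which 510 (82.7%) lay inside a region. All 510 differed in the direction of their region. In 50 of the 52 regions every cytosine of the region was listed there. The exceptions were csrp1a, with 5 of 8 listed, and mmp23bb, with 6 of 9. The area statistic of a region, the authors' score for its size and strength, equalled the sum of the listed per-cytosine statistics within 0.01 in the same 50 regions. How the authors joined cytosines into regions is not known here. Such joining could by itself give the shared direction and the complete listing, so neither is separate support for the regions. In 40 of the 52 regions 1 identical level, to 6 decimals, stood at every listed cytosine in the higher condition. The values of neighbouring cytosines in such a region are thus the same number. For example, all 19 listed cytosines of robo3 had 0.500157 in condition 1, and all 19 of il1rapl2 had 0.26422 in condition 2, by the authors' deposited table.

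Levels were also shared between regions on different chromosomes. There were 47 distinct higher levels over 52 regions, and 9 regions shared theirs with another. In the authors' deposited table pkd1a, CABZ01079276.1 and zfr all had 0.575815 in condition 1, although they held 6, 6 and 4 cytosines. The first reep3b region and CR318624.1 shared 0.730682 in condition 1, and VDR and si:ch73-352p18.4 shared 0.349935 in condition 1, by the authors' deposited table. For phlpp1 and ppp1r1c the shared level was 0.549221, in condition 2, per the authors' deposited table. Coverage was not used here, and why these levels coincide was not tested.

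The standard errors and p-values per cytosine were the authors'. Inside regions the standard error of the difference had a median of 0.0887 (0.0225 to 0.203), and the unadjusted p-value had a median of 3.28e-05 with a highest value of 0.0175, in the authors' deposited table. These errors compare 1 library with 1 library. Of the 510 cytosines inside regions 425 (83.3%) were higher in condition 1, against 74 (69.2%) of the 107 outside. The median of the higher level was 0.366 inside, against 0.289 outside, in the authors' deposited table. The lower level was under 0.01 in 491 of 510 inside, against 92 of 107 outside. The cytosines of 1 region often share 1 level, so these shares were not tested against each other. Joining cytosines into regions may also have selected them by these values, so the differences are no separate result about regions.

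In the 12 regions with more than 1 level, the highest and the lowest level of the higher condition differed by a median of 0.0793 (0.00919 to 0.3). In fbxo8, 26 of 28 cytosines had 0.249 in condition 1 and the outermost on each side had 0.258 and 0.251, in the authors' deposited table. In prkcz the level in condition 1 took 4 values, with 0.416 at the low-coordinate end and 0.346 at the high-coordinate end, in the authors' deposited table. The widest ranges were found in pcdh7b (0.218 to 0.518 in condition 1), CABZ01076744.1 (0.235 to 0.485) and usp22 (0.174 to 0.356), per the authors' deposited table. The lowest level was at the low-coordinate edge in pcdh7b and usp22, whereas CABZ01076744.1 had its highest level at the high-coordinate edge and its lowest inside.

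**Figure D2:**
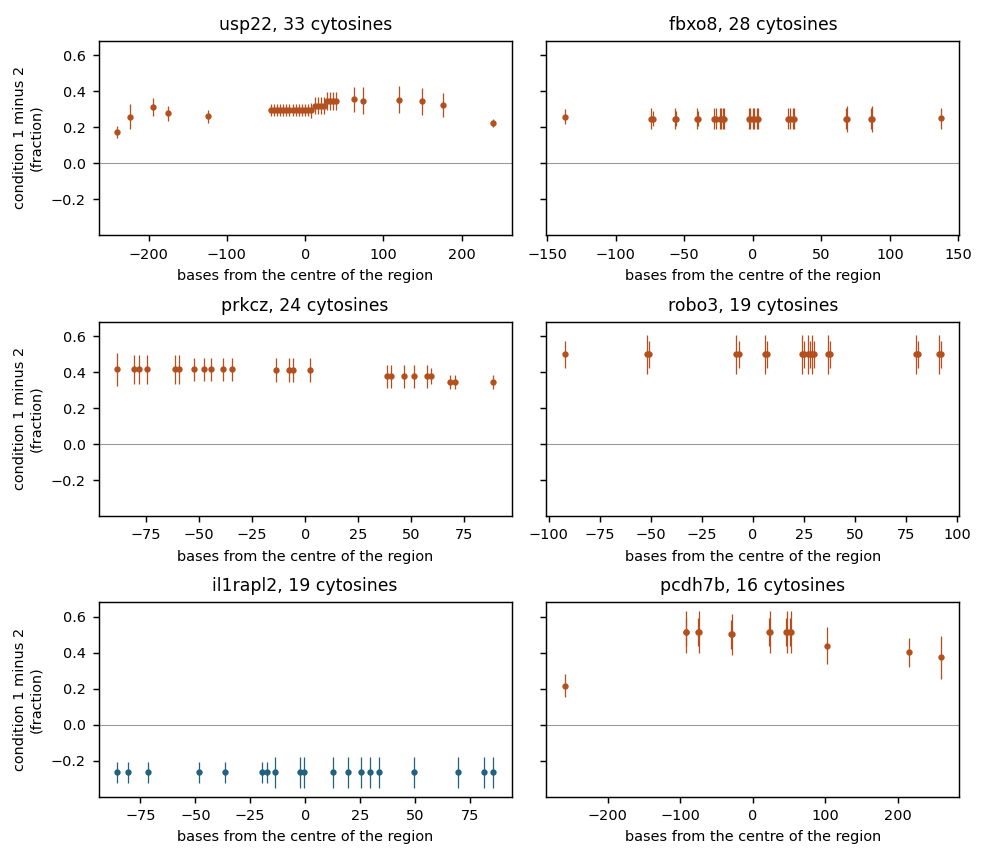
Difference in methylation level, condition 1 minus condition 2 (fraction, vertical axis), at each listed cytosine of 6 regions against its distance from the centre of the region in bases, with bars of 1 authors' standard error. All panels but il1rapl2 lie above 0, and the points of robo3 and il1rapl2 lie on 1 level while usp22 and pcdh7b have lower values at the edge.

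The spacing of the cytosines split the regions into 2 kinds. In 16 regions some listed cytosines stood at adjacent positions, and in the other 36 none did, with a smallest gap of 2 bases. In those 16 regions 154 of 175 listed cytosines (88%) were in adjacent runs, and in 6 of the regions every cytosine was. The runs had 2 members in 69 cases and 4 in 4 cases, and there was no run of an odd number. Within each of the 69 pairs the 2 differences were equal within 0.001, while the standard errors were unequal in all 69. The larger standard error was at the lower coordinate in 29 pairs and at the higher in 40, and in 13 of the 16 regions it was always on the same side.

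Regions with adjacent cytosines included fbxo8 (26 of 28 cytosines in runs), robo3 (18 of 19), plch2a (14 of 17) and pcdh7b (12 of 16). Of the 16, 11 were higher in condition 1 and 5 in condition 2, against 30 and 6 of the 36 others. Their median higher level was 0.434, against 0.381 in the others. Both regions with a lower level above 0.01 were among the 16. Inside regions 30.2% of listed cytosines had an adjacent listed cytosine, against 20 of 107 (18.7%) outside. Joining neighbouring cytosines into regions could by itself give this difference, so it is no separate result about regions. The file headed the number of cytosines as nCG. Strand and sequence were not used here, so whether adjacent cytosines stood on 1 strand or on both was not tested.

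**Figure D3:**
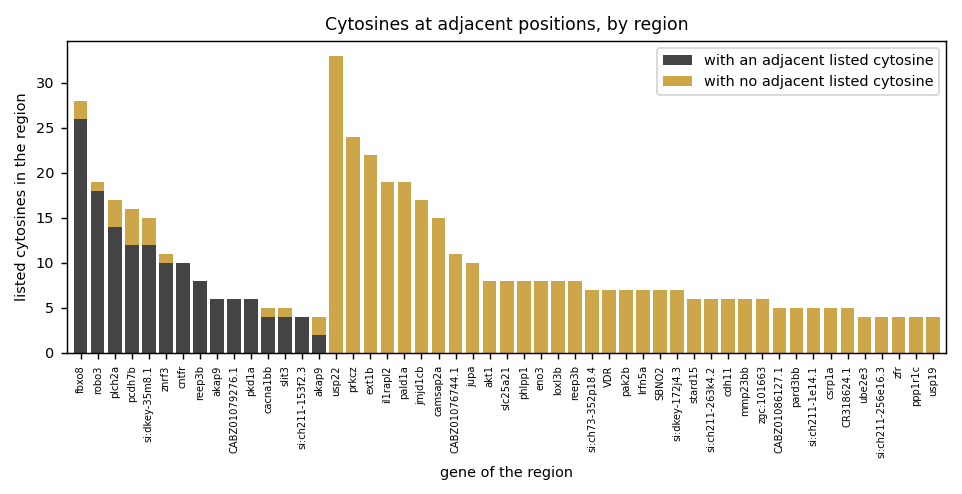
Number of listed cytosines per region (vertical axis), split into those with an adjacent listed cytosine (dark) and those without (light), 1 bar per region for 51 of the 52, labelled by gene. The 15 regions on the left have adjacent cytosines and the 36 on the right have none.

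The region of usp22 differed in its spacing. Of its 33 cytosines, 22 were spaced exactly 4 bases apart in 1 unbroken stretch from 1525034 to 1525118 on chromosome 12. Their level ranged from 0.295 to 0.347 in condition 1 and from 0.000288 to 0.000311 in condition 2, by the authors' deposited table. Among the other regions the longest run of equal gaps spanned 3 gaps. Across all regions, neighbouring listed cytosines were a median of 8 bases apart (1 to 166), and 255 of 458 gaps were at most 10 bases.

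The regions lay inside their gene spans, at varied distances from the ends. All 53 rows lay wholly within the span the table gave for the gene. Each row paired a region with a gene and the number of bases they shared. Regions outside genes may therefore not have been listed, so lying within a gene is no result here. The spans had a median length of 78284 bases (2343 to 638919), and 21 of them reached 100000 bases. Genes with a region had a median span of 85366 bases, against 52248 for the 41 genes with listed cytosines but no region. The nearer end of the span was a median of 15930 bases away. Only 2 regions, in usp22 and ube2e3, lay within 1000 bases of an end, 6 lay within 2000 bases, 15 within 5000 and 23 (44.2%) within 10000.

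The table gave no strand, so places along the span run from low to high coordinate and do not separate the start of a gene from its end. With the span cut into 3 equal stretches, 8 regions had their midpoint in the low stretch, 26 in the middle and 18 in the high one. Regions higher in condition 1 numbered 5, 23 and 13 in these stretches, and those higher in condition 2 numbered 3, 3 and 5. With 10 stretches, the lowest held 2 regions (csrp1a and usp19) and the highest 7. Both outermost stretches together held 9 regions (17.3%). In the highest were usp22, zgc:101663, camsap2a, pkd1a, both akap9 regions and ube2e3. Because no annotation of this build was used here, the regions were not placed in exons, introns or untranslated regions. The libraries were made from isolated messenger RNA, per the labels.

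**Figure D4:**
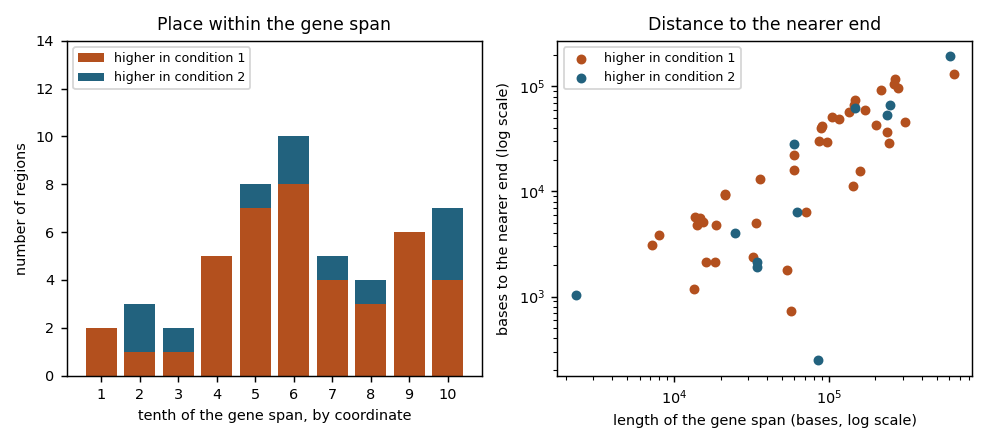
Left, number of regions in each of 10 equal stretches of the gene span, from low to high coordinate, by the condition with the higher level. Right, distance in bases from each region to the nearer end of the span against the length of the span, both on log scales, with 2 regions under 1000 bases from an end.

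Ribosome footprints were then compared for the genes that held regions. Ribo-seq counts RNA fragments protected by ribosomes, and the mutant library held 18884823 rounded footprint reads, against 20696287 in the sibling library. These libraries were separate from the bisulfite ones, so the tissue of the bisulfite libraries was not checked by expression. The mutated gene nop2 had 2.17 CPM (reads of the gene scaled to the library total) in the mutant library and 31.7 CPM in the sibling library, a log2 ratio of -3.85 with a 95% counting interval of -4.36 to -3.41. Of 51 region genes, 41 were matched to a gene in the footprint table and 39 had a mean of at least 1 CPM. Fewer cells of a type and fewer footprints per cell cannot be told apart in these bulk libraries, and no total RNA was used here.

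Footprints on region genes differed little in size between the genotypes. Their median log2 ratio of mutant over sibling was -0.17, against -0.06 over all 18127 measured genes. In the mutant library 27 of 39 (69.2%) were lower, where 55.1% of all measured genes were lower. With TMM scaling 24 of 39 (61.5%) were lower, beside 50.3% of all genes. At least 2-fold lower were 2 of 39 (5.7% of all measured genes), at least 2-fold higher was 1 of 39 (4.73% of all), and past either limit were 3 (10.4% of all). With the authors' TPM or a pseudocount of 5 no region gene was at least 2-fold higher and the same 2 were at least 2-fold lower, and at a mean of at least 10 CPM 1 was higher and none lower. The shares of region genes past 2-fold were near the background. The share lower at any size was above it under both scalings, and this was not tested. The 37 measured genes with listed cytosines but no region had a median of -0.13. By library totals 25 of these 37 (67.6%) were lower in the mutant library, a share near that of the region genes.

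The gene with the highest ratio was zgc:101663, with 327 reads (17.3 CPM) in the mutant library and 177 reads (8.55 CPM) in the sibling library. Its log2 ratio was 1.02, with a counting interval of 0.75 to 1.29. The polycystin gene pkd1a had 62 reads (3.28 CPM) in the mutant library and 165 reads (7.97 CPM) in the sibling library. Its log2 ratio was -1.27, with a counting interval of -1.73 to -0.85. The metallopeptidase gene mmp23bb had 42 reads (2.22 CPM) in the mutant library and 117 reads (5.65 CPM) in the sibling library, a log2 ratio of -1.33 with a counting interval of -1.89 to -0.83. All 3 had a region higher in condition 1, as did 32 of the 39 measured region genes, so this direction is no trait of the 3. Genes with that direction of methylation stood at both ends of the footprint ratios. Counting intervals cover counting error only.

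By the direction of the region, the median footprint ratio was -0.17 on the log2 scale for the 32 measured genes of condition 1 regions and -0.02 for the 7 of condition 2 regions. Their ranges were -1.33 to 1.02 for condition 1 genes and -0.86 to 0.29 for condition 2 genes, and so overlapped. Over all 39 genes the counting interval was below 0 in 18 (46.2%) and above 0 in 8 (20.5%). It was below 0 in 31.9% and above 0 in 25.2% of all measured genes. Among the 37 measured genes with listed cytosines but no region it was below 0 in 17 (45.9%) and above 0 in 7 (18.9%). The median of the mean CPM was 16.1 over region genes, 24.2 over those 37 and 12.4 over all measured genes. More reads give narrower intervals, and their part in these shares was not tested.

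Among signalling genes 9 of 10 were lower in the mutant library, where 55.1% of all measured genes were lower, with a median of -0.16. With TMM scaling 7 of 10 were lower, where 50.3% of all genes were, with a median of -0.11. By library totals the counting intervals of prkcz, pald1a, cntfr, akt1 and akap9 held 0. Those of plch2a, phlpp1, pak2b and ppp1r1c were below 0, and that of si:dkey-172j4.3 was above 0. The phosphatase gene phlpp1 had 7.94 CPM in the mutant library and 12.6 CPM in the sibling library (log2 ratio -0.66), and akt1 had 12.5 CPM in the mutant library and 14.01 CPM in the sibling library (log2 ratio -0.16, counting interval -0.41 to 0.09). Of 5 ubiquitin genes 4 were lower in the mutant library, and 3 under TMM scaling. Among those 4 only usp19 had a counting interval below 0 (-0.49 to -0.24), and the intervals of usp22, fbxo8 and ube2e3 held 0. The deubiquitinase gene usp22 itself had 19.5 CPM in the mutant library and 21.1 CPM in the sibling library, and its counting interval of -0.32 to 0.09 held 0.

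Guidance and adhesion genes went both ways. The gene robo3 had 120 CPM in the mutant library and 96.2 CPM in the sibling library (log2 ratio 0.31, counting interval 0.23 to 0.40), and slit3 had 136 CPM in the mutant library and 103 CPM in the sibling library (log2 ratio 0.41, counting interval 0.32 to 0.49). The adhesion genes cdh11, pcdh7b and lrfn5a were lower in the mutant library, with log2 ratios of -0.46, -0.52 and -0.93 and counting intervals below 0. The ligand and its receptor family gene thus stood higher, and the cadherin family genes lower, under both the library total and TMM scaling.

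Among all measured genes 44.9% were higher and 55.1% lower in the mutant library. Of 4 cytoskeletal genes, 3 were higher in the mutant library, led by csrp1a with 38.6 CPM in the mutant library and 24.2 CPM in the sibling library (log2 ratio 0.68). Of 4 matrix and glycan genes, 3 were lower, among them ext1b with 7.04 CPM in the mutant library and 10.9 CPM in the sibling library (log2 ratio -0.63). The enolase gene eno3 had the most footprints of all region genes, 511 CPM in the mutant library and 534 CPM in the sibling library (log2 ratio -0.06).

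**Figure D5:**
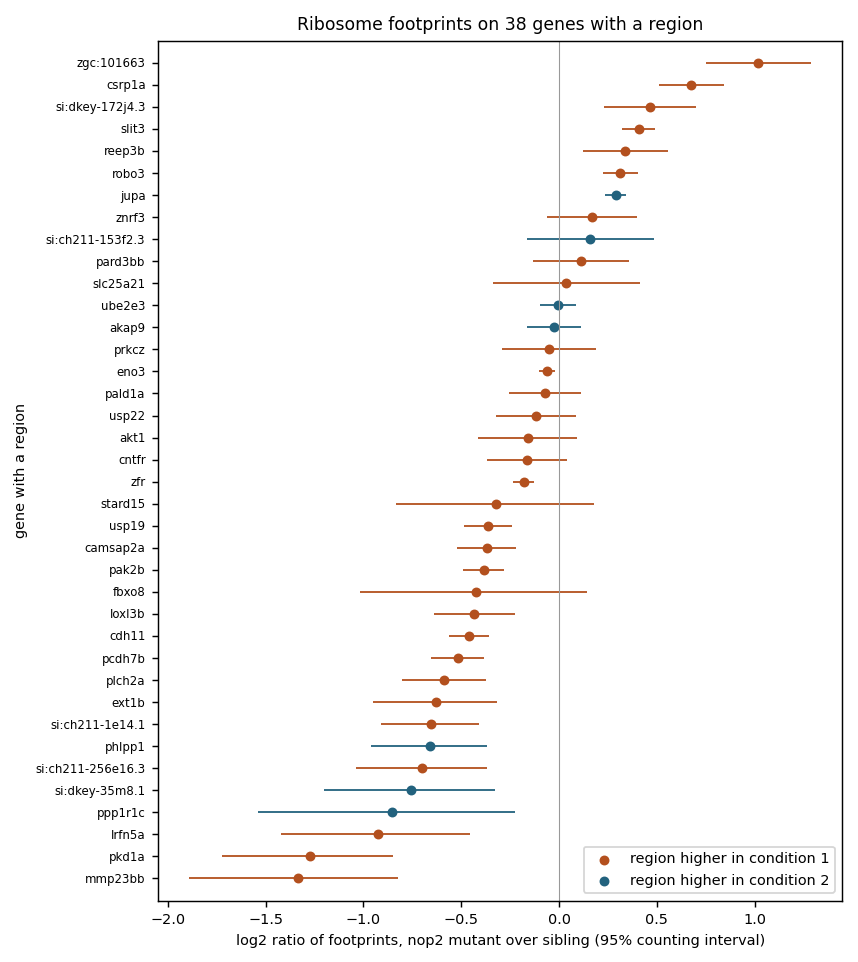
Log2 ratio of Ribo-seq footprints, nop2 mutant over sibling (horizontal axis), for 38 of the 39 measured genes with a region, with exact 95% counting intervals as lines and colour by the condition in which the region was higher. Most genes lie within 1 log2 unit of 0, with zgc:101663 above and pkd1a and mmp23bb below.

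Marker lists of other cell types also differed between the Ribo-seq libraries, and their part in these ratios was not tested. The 4 skeletal muscle markers summed to 12309.5 CPM in the mutant library and 36884 CPM in the sibling library, and 3 of the 4 were lower. The 3 lens markers, all lower, summed to 1175 CPM in the mutant library and 3072 CPM in the sibling library. Skin markers (3 of 4 higher) summed to 19602 CPM in the mutant library and 11765 CPM in the sibling library, and blood markers (2 of 2 higher) to 1986 CPM in the mutant library and 923 CPM in the sibling library. The 5 neuron markers, 2 of them higher, summed to 1102 CPM in the mutant library and 1231 CPM in the sibling library. The 4 radial glia markers, 1 of them higher, summed to 972 CPM in the mutant library and 1972 CPM in the sibling library. No marker was at 0 in either library.

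The m5C machinery was read in the same libraries. Of 16 listed genes 15 were measured, with 6 higher in the mutant library, where 44.9% of all measured genes were higher, and a median log2 ratio of -0.15. The methyltransferase genes nsun2 and nsun4 were higher, with 46.1 CPM in the mutant library and 33.3 CPM in the sibling library for nsun2 (log2 ratio 0.47) and 8.95 CPM in the mutant library and 5.56 CPM in the sibling library for nsun4 (log2 ratio 0.69). The methyltransferase gene nsun5 was also higher (log2 ratio 0.31). By library totals the counting intervals were 0.32 to 0.61 for nsun2, 0.34 to 1.04 for nsun4 and 0.03 to 0.59 for nsun5. Other methyltransferase genes, nsun3, nsun6 and trdmt1, had log2 ratios of 0.17, 0.09 and -0.15, with counting intervals that held 0. The oxidase gene tet1 had 9.74 CPM in the mutant library and 16.3 CPM in the sibling library (log2 ratio -0.74). Its relatives tet2 and tet3 were also lower, with log2 ratios of -0.21 and -0.16. For the listed gene alkbh1 the log2 ratio was -0.20, with a counting interval that held 0 (-0.72 to 0.32). The export factor gene alyref, whose protein binds m5C in messenger RNA, had 361 CPM in the mutant library and 272 CPM in the sibling library (log2 ratio 0.41). By library totals the other listed binding proteins were lower, with log2 ratios of -0.18 for ybx1, -0.29 for fmr1 and -0.13 for ythdf2. Their counting intervals were below 0 by library totals. The median of all genes was -0.06 by library totals and -0.0027 with TMM scaling, under which no intervals were computed.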

How the data were processed

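RNA bisulfite sequencing and Ribo-seq each had 1 nop2 mutant and 1 sibling library, grouped by the genotype in the labels. The submitters' processing notes name the build GRCz11 and, with no role or order, methylKit, HISAT2, STAR, Bowtie2, SAMtools, fastp and Trimmomatic 0.38. Names of the deposited bisulfite tables and their columns are those of DSS, at a version and settings not given in the sources used here. Per the file headers they hold the authors' mean methylation levels as a fraction from 0 to 1, an area statistic and a per-cytosine statistic, both scores by the authors, a standard error, and the authors' unadjusted p-value per cytosine. The region rows had 14 fields under 13 header names, so columns were read by position after testing relations between them on all 53 rows. Coverage and conversion rate were not used here, so depth is unknown. Positions were read as counted from 0 and are printed counted from 1.

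The deposited Ribo-seq table holds the authors' expected counts, not whole numbers for 25.7% of genes and rounded here, and the authors' TPM. Mutant over sibling CPM, as a log2 ratio, used a pseudocount of 0.5 and a minimum mean of 1 CPM, and its interval is the exact Clopper-Pearson interval conditional on both counts. Reads carried no molecular identifier and are not independent molecules, so intervals cover counting error only. No test was made, since no group had replicates. Of the 51 genes, 33 were matched by symbol, 7 by gene ID and 1 by symbol in another case, 8 were unmatched and 2 had several IDs. The interval calculation was tested on simulated data. Python 3.11.15, pandas 2.3.3, scipy 1.17.1 and matplotlib 3.10.9 were used, with edgeR 4.0.16 (TMM) and DESeq2 1.42.0 (size factors) only for alternative scalings. Named regions were every one higher in condition 2, the 12 with most cytosines, the 6 with the largest difference, the 3 longest and 3 shortest, genes with more than 1 region, genes at least 2-fold different in footprints at a mean of 5 CPM or more, and up to 3 examples per class. More genes of the classes, and mmp23bb, which lay under 5 CPM, were named after their values were seen. Members, lists and classes were chosen with earlier results of these data known. The region of 1 gene was counted in every summary, is not reported here by name and is left out of the figures with gene labels.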

Additional observations from a re-analysis of the deposited data

How the results depend on the processing

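Over 44 alternatives to the 7 summary values, 40 stayed within the interval of the value or within 1.5 times the count. All reuse the same libraries, and many are subsets of the same regions, so this count does not stand for replication. The majority direction of listed cytosines could not differ, because all of them had the direction of their region. The share of regions higher in condition 1 lay between 78.8 and 84.6% in all 7 alternatives run. The median higher level was 0.329 in the 17 regions with at least 10 cytosines, below its interval of 0.336 to 0.477. The share with a lower level under 0.01 was 100% in the 36 regions without adjacent cytosines, an alternative chosen after seeing the data. The share in the high-coordinate stretch of 3 was 34.6% by midpoint, and 3.85% of regions lay within 1000 bases of the high-coordinate end, which is a narrower window by construction. The number of region genes at least 2-fold different in footprints was 3, and 1 at a mean of at least 10 CPM, where 28 genes were left, and 2 with the authors' TPM or a pseudocount of 5, which left zgc:101663 under 2-fold. The median footprint ratio of the region genes ranged from -0.24 with the authors' TPM to -0.07 at 10 CPM. The median of all genes was -0.0027 with TMM scaling and -0.06 with library totals. A coverage minimum was not run, because no coverage was used here. No paired analysis was possible because each genotype had 1 library per assay.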

Other observations

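The gene ontology terms of the deposited Ribo-seq table were read for the 41 matched genes, of which 17 had none. Only terms listed for at least 3 of the 41 were kept, so the terms were picked for being frequent among these genes. Homophilic cell adhesion was listed for 3 of them (cdh11, pcdh7b and robo3), 7.32%, against 0.29% of all 25522 listed genes. Calcium ion binding was listed for 4 (cdh11, pcdh7b, plch2a and slit3), 9.76%, against 1.66% of all. Metal ion binding was listed for 8, 19.5%, against 7.94% of all. Nucleus and cytoplasm were listed for 4 genes each, 9.76%, against 13.3% and 12.3% of all. Membrane was listed for 8, 19.5%, against 15.9% of all, and plasma membrane for 5, 12.2%, against 9.3% of all. The 25522 genes set beside them included genes with few or no footprints, as 18127 had a mean of at least 1 CPM. Because of this choice of terms and genes, the higher shares are no result about region genes. These shares were not tested.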
